A study of Mus musculus with 4 samples.

Results

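The ADAM family holds the membrane-anchored ADAM proteases, the secreted ADAMTS proteases and the secreted ADAMTS-like proteins. Its members were chosen by symbol (Adam, Adamts or Adamtsl followed by a number), which gave 42 of the 21578 genes in the joined count table, with 19 ADAM, 18 ADAMTS and 5 ADAMTS-like genes. Of 57 genes with such symbols in the GENCODE M21 annotation, 15 were not listed in the table and were not analysed here. RNA was sequenced from brain endothelial cells that had been purified by flow cytometry from C57BL/6 mice at P0, the day of birth. Pd1 (Pdcd1) encodes an inhibitory receptor best known from T cells. The control mice, Pd1fl/fl, carried loxP-flanked Pd1 alleles, and Pd1cKO-Tie2 mice carried the same alleles with a Tie2-Cre transgene, so the controls share the floxed alleles but not the Cre. The Tie2 promoter drives Cre in endothelium, and the study names its activity in haematopoietic cells as a limit of the model. Each genotype had 2 libraries, numbered here in the order of the tables' column names. The labels do not say whether they came from separate mice, so p-values measure only the spread between these libraries, which may be technical.

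ADAM proteases sit in the plasma membrane and cut off the outer parts of neighbouring membrane proteins, a step called shedding that releases growth factors and cytokines and starts Notch signalling. Some ADAMs have lost the zinc-binding site and act as adhesion proteins or as receptors for secreted ligands. ADAMTS proteases are secreted, carry thrombospondin repeats and cut extracellular matrix proteins such as versican, procollagen and fibrillin-associated proteins. ADAMTS-like proteins have the thrombospondin repeats but no protease domain, and several bind fibrillin microfibrils. In blood vessels the family is known for VE-cadherin and Notch cleavage by ADAM10 and for the turnover of proteoglycans by ADAMTS1.

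The zinc-binding site is the part of the protein that separates the proteases of the family from the members that cannot cut, so its coding sequence is shown for members on which the results turn. The site consists of a histidine followed by a glutamate, a histidine after 2 more residues, a glycine after 2 more, and a last histidine after 2 more. Capitals mark the codons for these fixed residues, and lower case marks the residues between them and any fixed position that codes for another residue. Sequences are the spliced coding strand of GENCODE M21 transcripts, 5′ to 3′, and positions are on GRCm38 (the outer ends, across the intron where 2 exons are named).
Adam10 (chr9:70754296-70761585, + strand, exons 9 and 10): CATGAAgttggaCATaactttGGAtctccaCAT
Adam17 (chr12:21336732-21336764, - strand, exon 12): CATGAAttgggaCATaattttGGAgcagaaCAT
Adam15 (chr3:89344780-89344812, - strand, exon 11): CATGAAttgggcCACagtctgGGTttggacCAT
Adam9 (chr8:24990326-24990358, - strand, exon 11): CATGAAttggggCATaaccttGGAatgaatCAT
Adam8 (chr7:139987893-139987925, - strand, exon 11): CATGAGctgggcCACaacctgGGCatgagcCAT
Adam19 (chr11:46125050-46125082, + strand, exon 11): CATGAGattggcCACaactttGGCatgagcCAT
Adam22 (chr5:8143064-8143096, - strand, exon 13): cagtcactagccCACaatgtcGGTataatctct
Adam23 (chr1:63547763-63547795, + strand, exon 13): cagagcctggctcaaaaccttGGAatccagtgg
Adamts8 (chr9:30952721-30953378, + strand, exons 3 and 4): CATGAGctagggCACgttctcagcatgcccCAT
Adamts1 (chr16:85799191-85799545, - strand, exons 3 and 4): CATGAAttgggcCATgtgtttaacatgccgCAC
Adamts10 (chr17:33538157-33538279, + strand, exons 9 and 10): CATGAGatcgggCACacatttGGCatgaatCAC

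Of the 19 ADAM genes, 11 encode the complete site and 8 do not. Among the ADAMs printed, Adam10, Adam17, Adam15, Adam9, Adam8 and Adam19 kept all 5 fixed codons. Adam22 kept 2 of them and Adam23 kept 1. In Adamts1 and Adamts8 the glycine codon is replaced and the other 4 are kept, as also in Adamts4, Adamts9, Adamts15 and Adamts20. These 6 are the proteoglycan-cleaving ADAMTS genes apart from Adamts5, and the missing glycine codon says nothing here about their activity. Over all genes of GENCODE M21 with a complete coding sequence, 69 of 22024 (0.313%) encode the complete site, and 23 of those are members.

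Total counts were 13715837 to 14359990 in the Pd1fl/fl libraries and 14157027 to 24147311 in the Pd1cKO-Tie2 libraries. Pdcd1, the deleted gene, had counts of 32 and 0 in Pd1fl/fl and of 0 and 0 in Pd1cKO-Tie2, too few to be tested, so its counts do not check the genotypes. Levels are given as CPM, counts scaled to the library's total and by the trimmed mean of M-values (TMM), which adjusts for differences in library composition. Endothelial markers led in every library, and 10 of them summed to 10530 and 9597 CPM in Pd1fl/fl and to 12460 and 13320 CPM in Pd1cKO-Tie2. All 10 were higher in both Pd1cKO-Tie2 libraries than in both Pd1fl/fl libraries, with a median log2 fold change of 0.34. Markers of other cells moved too, as the plot of summed markers shows. The 6 microglia and macrophage markers summed to 1022 and 1308 CPM in Pd1fl/fl and to 392 and 902 CPM in Pd1cKO-Tie2, and the 8 radial glia and astrocyte markers to 1280 and 1151 CPM against 1008 and 959 CPM. The 8 neutrophil markers stood at 911 CPM in Pd1fl/fl library 1 and at 25.3, 55.5 and 2.34 CPM in the other libraries, so library 1 of Pd1fl/fl stands apart. Sums over 5 fibroblast markers (108 and 36.6 against 71.9 and 83.3 CPM), 6 oligodendrocyte lineage markers (181 and 103 against 203 and 108 CPM) and 7 pericyte and smooth muscle markers (5489 and 3550 against 3643 and 3662 CPM) overlapped between the genotypes. Most of the pericyte and smooth muscle sum was Rgs5 (4916 and 3220 against 3259 and 3279 CPM). In that list 5 markers were tested, 4 with a log2 fold change below 0 and 1 above, and the median was -0.32. Pdgfrb lay lower without overlap (159 and 106 against 91.8 and 92.1 CPM), and Myh11 lay higher without overlap at 1.67 CPM or less. Erythroid markers summed to 636 and 543 against 570 and 1059 CPM, and of the choroid plexus markers Ttr was at 4.14 CPM or less while Kl and Folr1 were at 0. In bulk RNA, fewer cells of a type and less RNA per cell cannot be told apart.

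**Figure D1:**
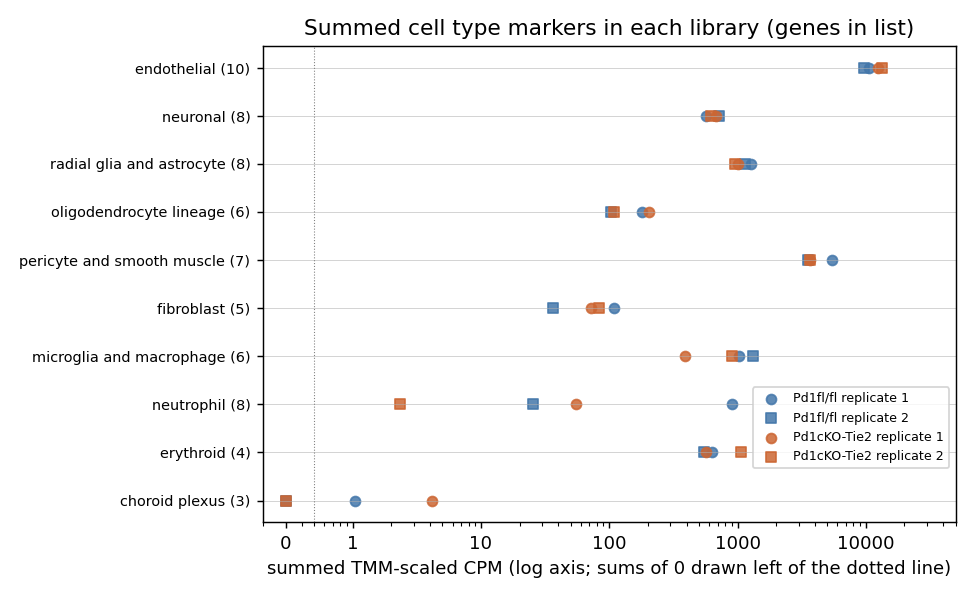
Summed CPM of the marker genes of 10 cell types (number of genes in brackets) in each library, on a log axis. Endothelial markers are highest in all 4 libraries, microglia and macrophage markers lie lower in both Pd1cKO-Tie2 libraries, and neutrophil markers are high only in Pd1fl/fl library 1.

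Expression of the family was dominated by a few membrane sheddases. The 42 members summed to 1218 and 1241 CPM in Pd1fl/fl and to 1251 and 1240 CPM in Pd1cKO-Tie2, with overlapping ranges. Adam10 alone held 44.6% and 44.5% of the family's counts in the Pd1fl/fl libraries, against 41.0% and 53.5% in Pd1cKO-Tie2. The 19 ADAM genes summed to 964 and 1026 CPM against 995 and 1035 CPM. The 18 ADAMTS genes summed to 208 and 165 CPM against 191 and 146 CPM, and the ranges of the genotypes overlapped. For the 5 ADAMTS-like genes the sums were 46.1 and 49.7 CPM against 64.5 and 58.8 CPM, higher in both Pd1cKO-Tie2 libraries. Most of each sum was Adamtsl2 alone, at 42.9 and 42.8 CPM in Pd1fl/fl against 53.4 and 57.4 CPM in Pd1cKO-Tie2.

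Compared per kilobase of exon, so that long and short genes can be ranked, Adam10 led with 116 CPM per kb (SD 13.4 over the 4 libraries). That is near the 131 CPM per kb of Kdr, the main VEGF receptor of endothelium, and the 126 CPM per kb of Tie1. Adam15 came next with 31.7 CPM per kb and Adam17 with 13.0 CPM per kb, and none of these 3 overlapped the next gene in the order over the 4 libraries. From the fourth place on, neighbours overlapped, with Adam9 at 9.38, Adamts1 at 7.77, Adamts10 at 7.52, Adamtsl2 at 6.14, Adam8 at 5.35 and Adam22 at 3.17 CPM per kb. The plot of levels by library shows the 31 members that passed the filter on low counts.

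**Figure D2:**
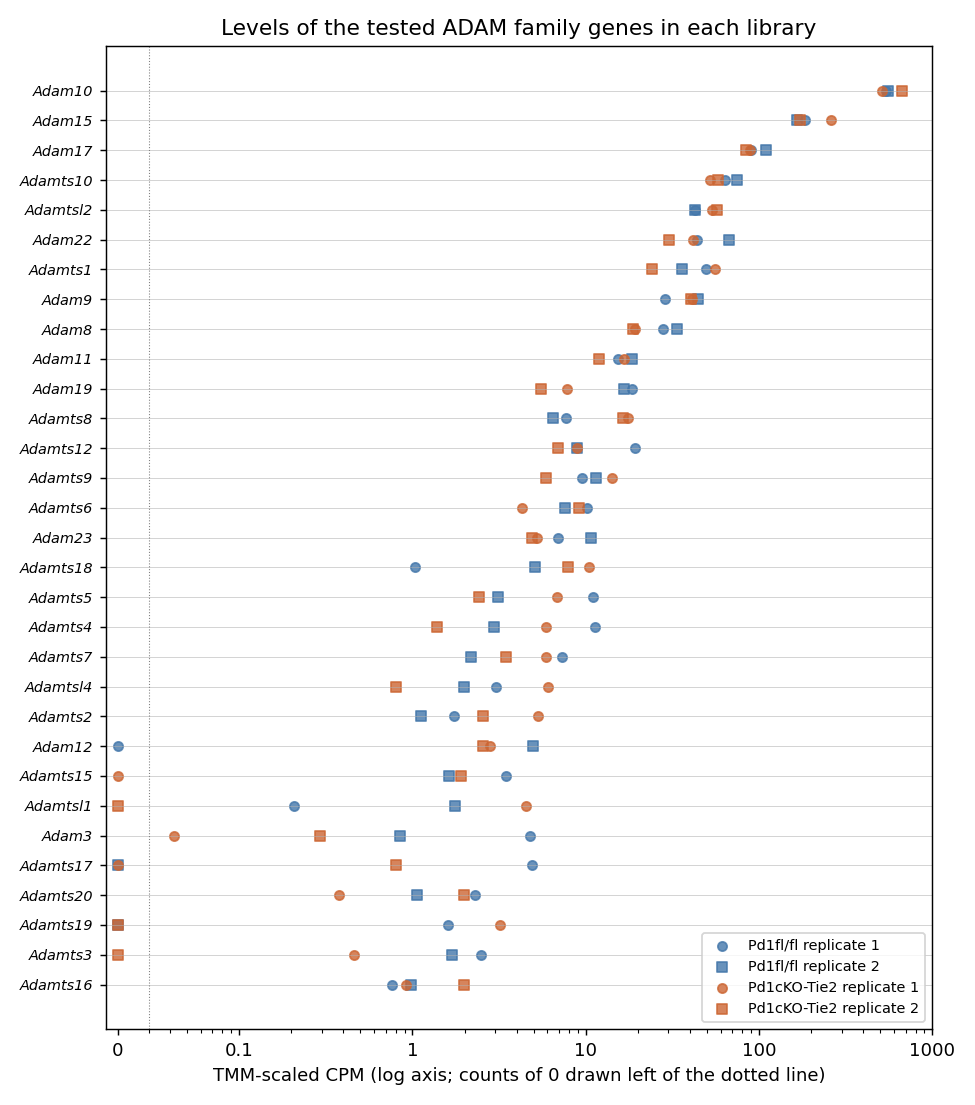
TMM-scaled CPM (log axis) of the 31 tested family genes in each of the 4 libraries, ordered by mean level, with counts of 0 drawn at the left edge. Adam10 lies between 512 and 663 CPM in every library, the genes in the lower part spread widely between libraries of the same genotype, and the colours of Adam19 and Adamts8 are separated.

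Between the genotypes, 2 members met the study's criterion of at least a 2-fold change with a p of 0.05 or less. Adam19 was lower and Adamts8 was higher in Pd1cKO-Tie2. They are 6.45% of the 31 tested members, beside 4.02% of all 15909 tested genes (640 genes, 1.41% higher and 2.61% lower), so the share was near the background. For the counts of genes without overlap given later, both libraries of a genotype lay beyond both of the other in 35.8% of all tested genes (17.7% higher and 18.1% lower in Pd1cKO-Tie2). No member and no gene had an adjusted p under 0.05 in edgeR's quasi-likelihood test with Benjamini-Hochberg adjustment, where the smallest adjusted p of any gene was 0.735 and 1016 genes, 2 of them members, had an unadjusted p under 0.05. DESeq2 gave 114 genes (0.672%) an adjusted p under 0.05 and no member among them, with 3 members at an unadjusted p under 0.05, while limma-voom gave 2 members an unadjusted p under 0.05. With 2 libraries against 2, a two-sided exact permutation test of a single gene cannot go below 0.333.

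Adam19 encodes meltrin beta, a sheddase of neuregulins with a part in heart development. It lies on chromosome 11 (46055992 to 46147343), and Pd1fl/fl held 268 and 236 of its reads against 187 and 75 in Pd1cKO-Tie2. Scaled for depth, these were 18.6 and 16.6 CPM in Pd1fl/fl (17.6 ± 1.39, SD, n = 2) and 7.83 and 5.49 CPM in Pd1cKO-Tie2 (6.66 ± 1.65, SD, n = 2). Both Pd1cKO-Tie2 libraries lay below both Pd1fl/fl libraries, and the gap between the genotypes was larger than the spread within either. The log2 fold change was -1.40 (SE 0.46, edgeR adjusted p = 0.735, DESeq2 adjusted p = 0.520). With any single library removed it lay between -1.67 and -1.16, but the unadjusted p stayed at 0.05 or less only in the fit without Pd1cKO-Tie2 library 1. Of its exons, 1067 bases overlap Gm16033 and Gm16034 on the other strand. Whether the counting used strand is not given in the sources used here.

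Adamts8 encodes a secreted protease also called METH-2, known for anti-angiogenic thrombospondin repeats. It lies on chromosome 9 (30942562 to 30963838), with counts of 111 and 92 in Pd1fl/fl and of 419 and 224 in Pd1cKO-Tie2. The scaled levels were 7.70 and 6.48 CPM in Pd1fl/fl (7.09 ± 0.862, SD, n = 2) and 17.5 and 16.4 CPM in Pd1cKO-Tie2 (17.0 ± 0.798, SD, n = 2). The genotypes did not overlap, and the libraries within each lay close together. Its log2 fold change was 1.26 (SE 0.44, edgeR adjusted p = 0.743, DESeq2 adjusted p = 0.608). Leaving out each library in turn gave log2 fold changes of 1.14 to 1.39, so the difference stayed above 2-fold, while the unadjusted p rose above 0.05 each time. Gm29724 overlaps 489 bases of its exons on the other strand.

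Adamts8 was higher beside an endothelial marker list that was higher in both Pd1cKO-Tie2 libraries. Adam19 was lower beside a microglia and macrophage list and a radial glia and astrocyte list whose sums were lower in both. The log2 fold change of Adamts8, 1.26, stood beside 0.21 to 0.47 for the endothelial markers, a difference that was not tested. Of the 6 microglia and macrophage markers, 4 lay lower without overlap, the median log2 fold change was -1.01, and Tmem119 was called lower. Of the 8 radial glia and astrocyte markers, 4 lay lower without overlap, the median was -0.76, and Fabp7 was called lower. Of the same list, Nes lay higher without overlap, at 198 and 122 against 217 and 285 CPM (log2 fold change 0.65), and Vim overlapped with a log2 fold change of 0.18. No marker of these lists was at 0 in any library, and their part in the results was not tested.

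The other abundant sheddases showed no called change. Adam10, the protease that cuts Notch receptors and VE-cadherin, was at 543 and 553 CPM in Pd1fl/fl and at 512 and 663 CPM in Pd1cKO-Tie2. These ranges overlapped, and the log2 fold change was 0.10 (SE 0.16, edgeR adjusted p = 1.00). Adam15, a protease of endothelial junctions, was at 183 and 165 CPM against 259 and 172 CPM, with a log2 fold change of 0.31 (SE 0.23, adjusted p = 0.976), and only Pd1cKO-Tie2 library 1 stood above the others. Its exons share 1263 bases with 4731419I09Rik on the other strand. Adam17, which releases TNF and ligands of the EGF receptor, was at 89.2 and 110 CPM against 88.3 and 84.4 CPM. Both Pd1cKO-Tie2 libraries lay below both Pd1fl/fl libraries by a margin under the spread within Pd1fl/fl, and the log2 fold change was -0.21 (SE 0.21, adjusted p = 1.00).

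Adam9, a broadly expressed sheddase, was at 28.5 and 44.5 CPM in Pd1fl/fl and at 41.1 and 40.3 CPM in Pd1cKO-Tie2, with a log2 fold change of 0.16 (SE 0.32, edgeR adjusted p = 1.00). Its lowest value was in Pd1fl/fl library 1, and without that library the log2 fold change was -0.13. Adam8, a sheddase known from macrophages and granulocytes, was at 27.9 and 33.4 CPM against 19.2 and 18.8 CPM. Both Pd1cKO-Tie2 libraries lay below both Pd1fl/fl libraries, and the log2 fold change of -0.69 (SE 0.31, adjusted p = 0.842) missed both parts of the criterion. The summed microglia and macrophage markers were lower in the same libraries and their part was not tested. The neutrophil markers, at 911 and 25.3 CPM in Pd1fl/fl and at 55.5 and 2.34 CPM in Pd1cKO-Tie2, were not tested for a part in it either.

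Of the ADAMs without the complete zinc site, 4 were tested and none was called. Adam3 reached the filter's level only in Pd1fl/fl and is given with the low members. Adam22, a receptor of the secreted synaptic protein LGI1, was at 43.8 and 66.6 CPM in Pd1fl/fl and at 41.5 and 30.1 CPM in Pd1cKO-Tie2. The genotypes did not overlap, although the Pd1fl/fl libraries differed from each other by more than the genotype means did, and the log2 fold change was -0.62 (SE 0.33, edgeR adjusted p = 0.906). Adam23, a related LGI receptor, was at 6.94 and 10.8 CPM against 5.23 and 4.91 CPM (log2 fold change -0.80, SE 0.61, adjusted p = 0.979). Adam11, a neuronal ADAM, overlapped between genotypes at 15.3 and 18.4 CPM against 16.7 and 11.9 CPM (log2 fold change -0.23, SE 0.40, adjusted p = 1.00). Adam22 and Adam23 were lower in the same libraries as the summed microglia and macrophage and the summed radial glia and astrocyte markers. The 8 neuronal markers summed to 571 and 721 CPM against 680 and 621 CPM with a median log2 fold change of 0.02, and of these Syt1 alone lay lower without overlap, at 33.6 and 24.2 against 18.4 and 10.5 CPM. The part of these markers was not tested.

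**Figure D3:**
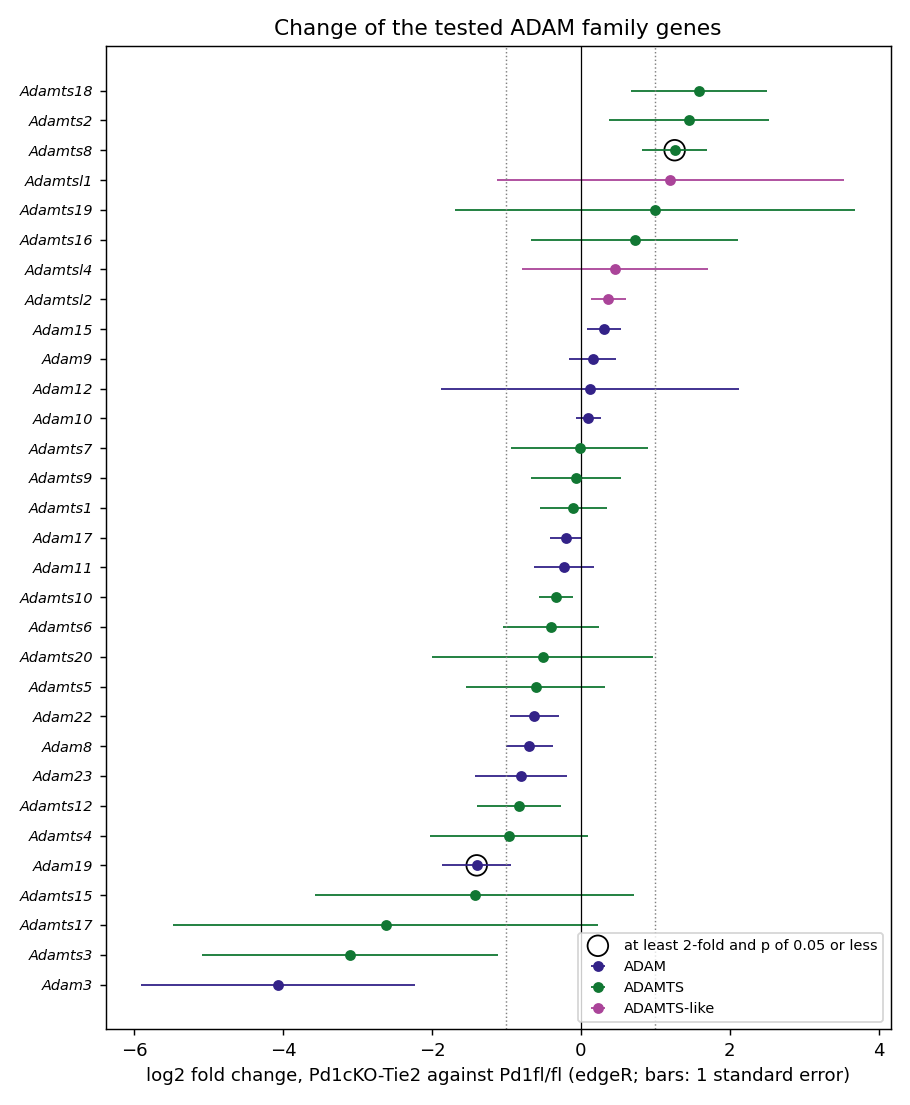
Log2 fold change of the 31 tested family genes (edgeR, Pd1cKO-Tie2 against Pd1fl/fl, bars of 1 standard error), coloured by subfamily, with dotted lines at 2-fold. Only Adam19 and Adamts8 are ringed as past the criterion, while the other 7 genes beyond 2-fold have longer bars.

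Of the proteoglycan-cleaving ADAMTS genes, all 7 were tested, and 6 had a log2 fold change below 0 with Adamts8 as the exception. The median was -0.51, but in 6 of the 7 the genotypes overlapped. Adamts1, which cuts versican and is itself anti-angiogenic, was at 49.3 and 36.1 CPM in Pd1fl/fl and at 55.4 and 24.1 CPM in Pd1cKO-Tie2 (log2 fold change -0.10, SE 0.45, edgeR adjusted p = 1.00). Adamts9, another versicanase, was at 9.57 and 11.4 CPM against 14.1 and 5.86 CPM (log2 fold change -0.07, SE 0.60, adjusted p = 1.00), and 1805 bases of its exons overlap other genes on the opposite strand. For both, the Pd1cKO-Tie2 libraries lay above and below the Pd1fl/fl libraries. Adamts4 and Adamts5, the aggrecanases of cartilage, were at 11.3 and 2.96 against 5.86 and 1.39 CPM and at 11.03 and 3.10 against 6.82 and 2.42 CPM. Here the spread within a genotype exceeded the difference between genotypes.

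Adamts10 and Adamts6 act on fibrillin microfibrils. Adamts10 had the highest CPM of the ADAMTS genes (below Adamts1 per kb), at 63.8 and 74.9 CPM in Pd1fl/fl and at 51.9 and 57.8 CPM in Pd1cKO-Tie2. Both Pd1cKO-Tie2 libraries lay below, by less than 2-fold, with a log2 fold change of -0.34 (SE 0.23, edgeR adjusted p = 0.953). Adamts6 was at 10.1 and 7.61 CPM against 4.31 and 9.16 CPM, and the genotypes overlapped. Adamts7 and Adamts12 cut the cartilage protein COMP. Adamts7 overlapped at 7.28 and 2.18 CPM against 5.90 and 3.44 CPM (log2 fold change -0.02, SE 0.92, adjusted p = 1.00). Adamts12 was at 19.2 and 8.95 CPM against 8.87 and 6.89 CPM, a separation that rested on Pd1fl/fl library 1. Its log2 fold change of -0.84 (SE 0.57, adjusted p = 0.953) became -0.18 without that library.

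Among the procollagen N-proteinases, Adamts2 was higher and Adamts3 lower in both Pd1cKO-Tie2 libraries, and neither was called. Adamts2, which trims fibrillar procollagens, had counts of 25 and 16 in Pd1fl/fl and of 126 and 35 in Pd1cKO-Tie2 (log2 fold change 1.45, SE 1.08, edgeR adjusted p = 0.975). Adamts3, which also activates the lymphatic growth factor VEGF-C, had 36 and 24 counts against 11 and 0 (log2 fold change -3.10, SE 1.99, adjusted p = 0.948). Adamts14 had 22 counts in Pd1cKO-Tie2 library 2 and 0 in the others. Vegfc itself, on a list of ADAMTS substrates, was at 11.8 and 9.51 CPM against 21.5 and 19.4 CPM, higher without overlap, with a log2 fold change of 0.94 (adjusted p = 0.786) that missed the criterion.

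The 4 orphan ADAMTS genes, whose substrates are little known, were low. Adamts18 had the largest fitted rise of the family, with counts of 15 and 72 in Pd1fl/fl and of 250 and 108 in Pd1cKO-Tie2, or 1.04 and 5.07 against 10.5 and 7.91 CPM. The genotypes did not overlap, but Pd1fl/fl library 1 lay far below library 2, and the log2 fold change was 1.59 (SE 0.92, edgeR adjusted p = 0.925). It was 0.86 without Pd1fl/fl library 1 and 3.14 without Pd1fl/fl library 2. Adamts16, Adamts17 and Adamts19 overlapped between genotypes, and Adamts17 and Adamts19 each had counts in only 2 libraries.

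ADAMTS-like genes, which encode no protease domain, had log2 fold changes above 0 in all 3 tested cases and none was called. Adamtsl2, a fibrillin-binding protein mutated in geleophysic dysplasia, was at 42.9 and 42.8 CPM in Pd1fl/fl and at 53.4 and 57.4 CPM in Pd1cKO-Tie2. The Pd1fl/fl libraries were nearly equal and both Pd1cKO-Tie2 libraries lay above them. The log2 fold change was 0.37 (SE 0.24, edgeR adjusted p = 0.946), close to the endothelial markers' median of 0.34. Adamtsl4 and Adamtsl1 were at 3.05 and 1.97 against 6.07 and 0.806 CPM and at 0.208 and 1.76 against 4.52 and 0 CPM, with overlap in both.

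Precision fell with the level. The median standard error of the log2 fold change was 0.32 for the 14 members with a mean of at least 10 CPM and 1.38 for the 17 tested members below it. Of those 17, 6 had a count of 0 in at least 1 library, which allows up to 3 counts, or 0.126 to 0.220 CPM (counting error only). In all, 9 of the 31 tested members had a fitted change of at least 2-fold, and 7 of these missed the p. Adam3, a sperm-surface ADAM, had the largest fitted fall (log2 fold change -4.06, SE 1.84, adjusted p = 0.845), from counts of 69 and 12 in Pd1fl/fl against 1 and 4 in Pd1cKO-Tie2. Adam3 and Adamts3 reached the filter's level only in Pd1fl/fl, so their place among the tested genes required them to differ.

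Adam5, another sperm ADAM, which lies beside Adam3 on chromosome 8, had 44 counts in Pd1fl/fl library 1 and 0 in the other libraries. Adam3 spans 24677225 to 24725852 and Adam5 24727093 to 24824369. Both had most of their counts in that library, as did the neutrophil markers. Of the 5 fibroblast markers, Col1a1 (152 counts) and Lum (39 counts) had counts in that library alone. Col1a2, Dcn and Col3a1 had counts in other libraries too. The part of these markers was not tested. Adam18, on the other side of Adam3, had 11 counts in Pd1cKO-Tie2 library 2 alone, and Adam9, farther along, had its lowest level in Pd1fl/fl library 1. Adam12, or meltrin alpha, had 0 and 70 counts in Pd1fl/fl against 67 and 35 in Pd1cKO-Tie2. Of the 11 members that did not pass the filter, none exceeded 44 counts in a library and 9 had counts in 1 library only. They comprised 8 ADAM genes, among them Adam2, Adam7, Adam21, Adam30 and Adam33, as well as Adamts14, Adamtsl3 and Adamtsl5. Adam1a had at most 3 counts. In GENCODE M21, 77.8% of its 50-base stretches are shared with Mapkapk5 and others. That gene model ends at 121545482, whereas the deposited position of Adam1a ends at 121522071. The share therefore need not hold for the gene as it was counted.

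As a description of replicate agreement, the genotypes did not overlap in 13 of the 31 tested members (41.9%), beside 35.8% of all tested genes. Of these members 4 lay higher (12.9%, beside 17.7%) and 9 lower (29.0%, beside 18.1%) in Pd1cKO-Tie2, the latter with Adam3 and Adamts3, whose direction was fixed by the filter. In all, 12 had a log2 fold change above 0 and 19 below, with a median of -0.21 beside -0.0038 over all tested genes. The median moved to -0.59 without Pd1cKO-Tie2 library 1, more than the SD of 0.22 over the 4 pairs of libraries. By subfamily the median was -0.23 for 11 ADAM, -0.34 for 17 ADAMTS and 0.46 for 3 ADAMTS-like genes. The plot with each library left out shows how far single libraries set these values.

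**Figure D4:**
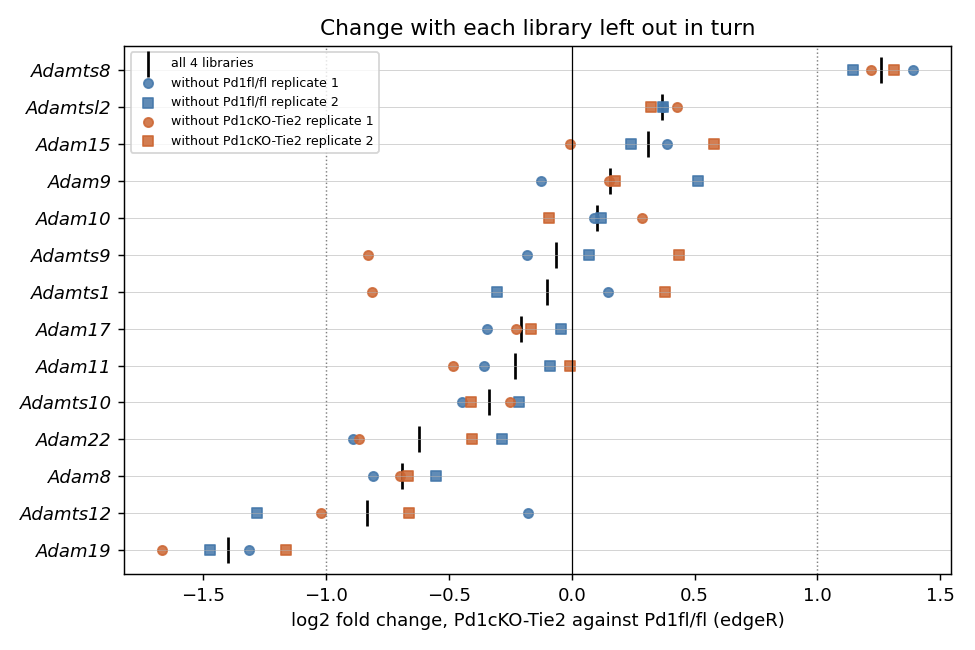
Log2 fold change (edgeR) of the 14 named members with all 4 libraries (bar) and with each library left out in turn (points). Adam19 stays beyond -1 and Adamts8 beyond 1 in all 4, whereas Adam10, Adam15, Adam9, Adamts1 and Adamts9 cross 0 in at least 1.

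The proteins that mature, carry and inhibit these proteases showed no called change. Of the 13 partners of ADAM17 and ADAM10 (iRhoms, tetraspanins and proprotein convertases), 12 were listed, 10 were tested and 0 were called, with a median log2 fold change of 0.11. Tspan14, a tetraspanin that brings ADAM10 to the surface, was at 200.3 and 187 CPM in Pd1fl/fl against 166 and 228 CPM, Tspan5 at 147 and 112 against 182 and 117 CPM, and the iRhom partner Frmd8 at 84.1 and 83.5 against 112 and 78.2 CPM. All 3 overlapped between the genotypes. Of the 10 tested partners, 1 lay higher and 3 lower without overlap (17.7% and 18.1% of all tested genes). Rhbdf1 was the higher, at 54.0 and 53.8 against 67.7 and 65.0 CPM (log2 fold change 0.30). The lower were Rhbdf2, Pcsk7 and Furin. Furin, which removes the inhibitory propeptide, was at 40.9 and 54.1 CPM against 38.9 and 33.03 CPM (log2 fold change -0.40, edgeR adjusted p = 0.965). Of the 5 inhibitors 0 were called (median log2 fold change -0.14), with Timp3, the main TIMP for ADAM17 and ADAMTS proteases, at 117 and 157 CPM against 156 and 171 CPM. Timp2 was at 45.5 and 30.1 against 27.3 and 41.4 CPM, and Timp4 at 14.7 and 5.42 against 11.5 and 5.64 CPM. Pofut2 and B3glct, which add the sugars of thrombospondin repeats, were not called, at 46.3 and 30.1 against 33.2 and 22.0 CPM and at 13.0 and 9.86 against 15.1 and 9.60 CPM.

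Among 23 membrane proteins of endothelium known to be shed, 17 had a log2 fold change above 0 and 6 below. The 2 that were called, Vcam1 and Mertk, were lower, beside 2.61% of all tested genes called lower. The median log2 fold change of the list was 0.20. Vcam1, a leukocyte adhesion molecule, was at 44.6 and 55.2 CPM in Pd1fl/fl and at 21.2 and 22.2 CPM in Pd1cKO-Tie2 (log2 fold change -1.20, SE 0.28, edgeR adjusted p = 0.735). Mertk, a phagocytic receptor also made by macrophages and astrocytes, was at 21.4 and 21.3 CPM against 7.58 and 6.74 CPM (log2 fold change -1.58, SE 0.40, adjusted p = 0.735). The summed markers of microglia and macrophages and of radial glia and astrocytes were lower in the same libraries, and their part was not tested. The genes of the list with the highest CPM, not corrected for length, were Kdr, Tie1 and Tek. They were higher in both Pd1cKO-Tie2 libraries by less than 2-fold (log2 fold changes 0.28, 0.36 and 0.33). Kdr, Tie1, Tek and Cdh5 are also among the 10 endothelial markers, which were all higher without overlap (median log2 fold change 0.34). The part of the endothelial markers in the values of this list was not tested. The Notch receptor Notch1 was at 112 and 90.9 CPM against 117 and 86.2 CPM and Dll4 at 64.2 and 81.2 against 71.2 and 83.1 CPM.

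Of 17 matrix substrates and cofactors of ADAMTS proteases, 14 were tested, 10 of them had a log2 fold change below 0, and only Sdc4 was called. Of all 15909 tested genes, 4.02% were called (1.41% higher and 2.61% lower). The median log2 fold change was -0.42. Sdc4, a heparan sulfate proteoglycan of the cell surface, was at 51.3 and 92.4 CPM in Pd1fl/fl and at 23.6 and 36.0 CPM in Pd1cKO-Tie2 (log2 fold change -1.27, SE 0.39, edgeR adjusted p = 0.735). Ncan, a proteoglycan of brain matrix, was lower by less than 2-fold at 1296 and 1438 against 1102 and 725 CPM (log2 fold change -0.58, adjusted p = 0.753). Vwf, the clotting protein that ADAMTS13 cuts, was at 530 and 515 CPM against 665 and 778 CPM (log2 fold change 0.47, adjusted p = 0.735). Bcan overlapped at 87.3 and 78.6 against 90.4 and 34.0 CPM. The summed radial glia and astrocyte markers and the summed microglia and macrophage markers were lower in the same libraries as Sdc4 and Ncan. Endothelial markers were higher in the same libraries as Vwf. The part of these markers was not tested. Of 7 partners of ADAM22, ADAM23 and ADAM11, 5 were listed and tested. Lgi4 was called lower (edgeR adjusted p = 0.738) from counts of 28 and 10 against 0 and 0, too few for a fold change to be read. Like Adam3 and Adamts3, Lgi4 reached the filter's level only in Pd1fl/fl, so its place among the tested genes required it to differ. The median of the 5 was -0.13. Kcna2, Dlg4 and Lgi1, the most abundant of them, overlapped between the genotypes.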

How the data were processed

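RNA of flow cytometry-purified brain endothelial cells was extracted with TRIzol and sequenced on an Illumina HiSeq. The authors deposited 4 tables, each pairing 1 Pd1cKO-Tie2 with 1 Pd1fl/fl library, with raw counts of reads per gene, not normalized. The deposited CPM columns are the count divided by the library total, and served only to recover those totals. Their fold change, p-value and adjusted p-value columns hold the authors' own comparisons and were not used. The submitters' processing notes name Bowtie2 2.2.3, TopHat2 2.0.12, HTSeq 0.6.0 and mm9, although 90.3% of the deposited gene positions equal GENCODE M21 on GRCm38. Strand use is not given in the sources used here.

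The tables were joined by gene identifier, and 5 broken lines in each of 2 tables were skipped. Where the tables of a library did not list a gene, its count was taken as 0, so that each library lost 0.00495% to 0.0107% of its total. The column of Pd1cKO-Tie2 library 2 has a number found in no sample label and served as a library of its genotype only.

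Counts were tested with edgeR 4.0.16 (R 4.3.3; quasi-likelihood F test, filterByExpr by genotype, TMM, no covariate) over 15909 genes, with Benjamini-Hochberg adjustment over all of them. Called genes changed at least 2-fold with p of 0.05 or less, as in the study's methods. The common biological coefficient of variation was 0.610. The fit was also run on simulated data with known 4-fold and 8-fold changes. Of the changed genes, 184 and 194 passed the filter, and the criterion recovered 72.8% and 88.1% of those. It was also met by 3.16% and 3.02% of unchanged genes. An adjusted p under 0.05 was reached by 41.8% and 69.1% of the changed genes that passed, and by 7 and 3 unchanged genes. Changes of 2-fold were not simulated, so the recovery at the criterion's own limit is not known. Levels per kb used the union of exons of GENCODE M21. Zinc sites were read from the longest complete coding sequence of each member's transcripts in GENCODE M21 (Python 3.11.15, Biopython 1.88), where the plan had named the RefSeq protein, and by alignment to Adam9 where the motif was incomplete.

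Members, gene lists and tests were chosen with earlier results of these data known. Members named in full are those called and those with a mean of at least 10 CPM, and list genes named are those called and the 3 of highest level. Low members, Furin, Rhbdf1, Rhbdf2, Pcsk7, Vegfc, Notch1 and Dll4 were named after their values were seen. Alternatives were DESeq2 1.42.0, limma-voom (limma 3.58.1), no filter beyond 1 count, a minimum of 10 counts in all 4 libraries, scaling by RLE, by the upper quartile or by library size alone, leaving out each library in turn, and, for levels per kb, the longest transcript.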

Additional observations from a re-analysis of the deposited data

How the results depend on the processing

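The same 2 members, Adam19 and Adamts8, met the criterion under limma-voom, both other filters and all 3 other scalings, and DESeq2 added Adam3. With each library left out in turn, 0 to 3 members did (0 without Pd1fl/fl library 1, Adam12, Adam5 and Adamts18 without Pd1fl/fl library 2, Adam19 without Pd1cKO-Tie2 library 1, Adamts15 without Pd1cKO-Tie2 library 2), 689 to 877 of all genes did, the median log2 fold change of members was -0.59 to -0.069 and 18 to 23 members did not overlap, where 3 libraries overlap less often by construction. Adamts8 was past the criterion in none of these fits. Of 154 alternative values of the 14 named members, 140 kept direction and side of the criterion, 7 kept direction alone and 7 reversed, all 14 with a library left out. Over these fits the log2 fold change was -0.092 to 0.29 for Adam10 (below 0 without Pd1cKO-Tie2 library 2), -0.0070 to 0.58 for Adam15 (below 0 without Pd1cKO-Tie2 library 1), -0.13 to 0.52 for Adam9 (below 0 without Pd1fl/fl library 1), -0.81 to 0.38 for Adamts1 (above 0 without Pd1fl/fl library 1 or Pd1cKO-Tie2 library 2) and -0.83 to 0.44 for Adamts9 (above 0 without Pd1fl/fl library 2 or Pd1cKO-Tie2 library 2). The cause was not tested. The median level per kb was 0.749 CPM, and 1.09 CPM with the longest transcript. No paired analysis was possible because the labels of the genotypes share only 1 replicate number. For members below 10 CPM a 2-fold change was smaller than the median standard error of 1.38 on the log2 scale, and what part of this came from depth or from spread between libraries was not tested.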
